A study of Mus musculus with 6 samples.

Results

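The enzymes that make, recycle and balance nucleotides were examined in mouse tumours as a set of 38 genes, each found under its listed symbol in the authors' deposited table, which has 29209 entries in all. The set covers the supply of phosphoribosyl pyrophosphate (PRPP, the activated ribose on which nucleotides are built), purine and pyrimidine synthesis from small precursors, deoxynucleotide synthesis, salvage of preformed bases and nucleosides, and the kinases that add phosphates. The tumours grew under the skin of NCr nude mice, a strain without a thymus, after injection of splenic cells taken from diseased mir-155LSLtTA mice. Both groups therefore carry the same tumour genotype and the same miR-155 overexpression system, and by the labels they differ in doxycycline (DOX) alone. In the DOX group (3 samples) the host mice ate chow with 2.3 mg per kg of the drug for 16 hours before harvest, which withdraws miR-155, and in the no DOX group (3 samples) they received no treatment and miR-155 stayed overexpressed. No tumour that lacks the transgene was given DOX, so the drug's own effect and that of microRNA loss cannot be told apart, and the level of miR-155 was not analysed here. Whether each sample is a tumour of its own mouse is not in the labels, so the spread behind the p-values is that among these samples and could be technical.

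The authors' deposited table gives a ratio, an unadjusted p and an adjusted p per entry, and no value per sample, group mean or standard error. Sequencing depth is unknown. Its header does not name the numerator of the ratio. Ratios were read as DOX over no DOX, and every "lower" and "higher" here exchanges places if the authors divided the other way. Calls rest on the adjusted p of the authors, with a threshold of 0.05. As a measure of error, the standard error implied by each fold and its p (the absolute log2 fold divided by the normal quantile of the two-sided p) is printed as "implied SE", and it approximates the spread that the authors' test worked with. Over the members it ran from 0.27 to 2.80 on the log2 scale, with a median of 0.47. The table holds ratios and no levels, so the presence of a cell type could not be checked from its defining markers.

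Purines are built stepwise on PRPP until inosine monophosphate is reached, which is then turned into AMP or GMP. Pyrimidines are built as a free ring that is joined to PRPP to give UMP, from which CTP follows. Ribonucleotide reductase converts ribonucleotides into their deoxy forms, thymidylate synthase makes the thymine nucleotide, and dividing lymphoid cells draw on both the synthesis and the salvage routes when they copy DNA.

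Most of the set was lower after DOX. Of the 38 members, all of them tested, 21 fell and 1 rose at the authors' adjusted p under 0.05. Over all 18543 tested entries 5.61% were called lower and 5.72% higher, while the members' shares were 55.3% and 2.63%. The 16 others did not pass, and 6 of these had an unadjusted p under 0.05. Among these 6, Ada, Guk1, Tk1 and Prps2 had ratios below 1, and Rrm2b and Ctps2 had ratios above 1. The median log2 fold of the members was -1.71, against 0.17 for all tested entries with a finite fold, from the ratios of the authors' deposited table. Among the 21 that fell, the reduction ran from 2.77-fold (Dtymk) to 12.9-fold (Nme4) in the authors' deposited table. Markers of other cell types moved in the same comparison. All 17 tested macrophage markers had a ratio above 1 (median log2 fold 2.16, range 0.41 to 4.86, 4 called higher), as did all 12 fibroblast markers (median 2.00, range 0.13 to 3.74, 3 called higher). Over all tested entries with a finite fold, 8827 of 15784 had a ratio above 1. The 15 B lineage markers had a median of 0.24, with 4 called higher and 1 lower. Of 8 tested T cell markers 0 were called by the authors' adjusted p and 1 had an unadjusted p under 0.05 (median -0.56). In bulk tumour RNA, fewer cells of a type and less RNA per cell cannot be told apart, and the part of a shift in cell makeup in the members' folds was not tested.

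**Figure D1:**
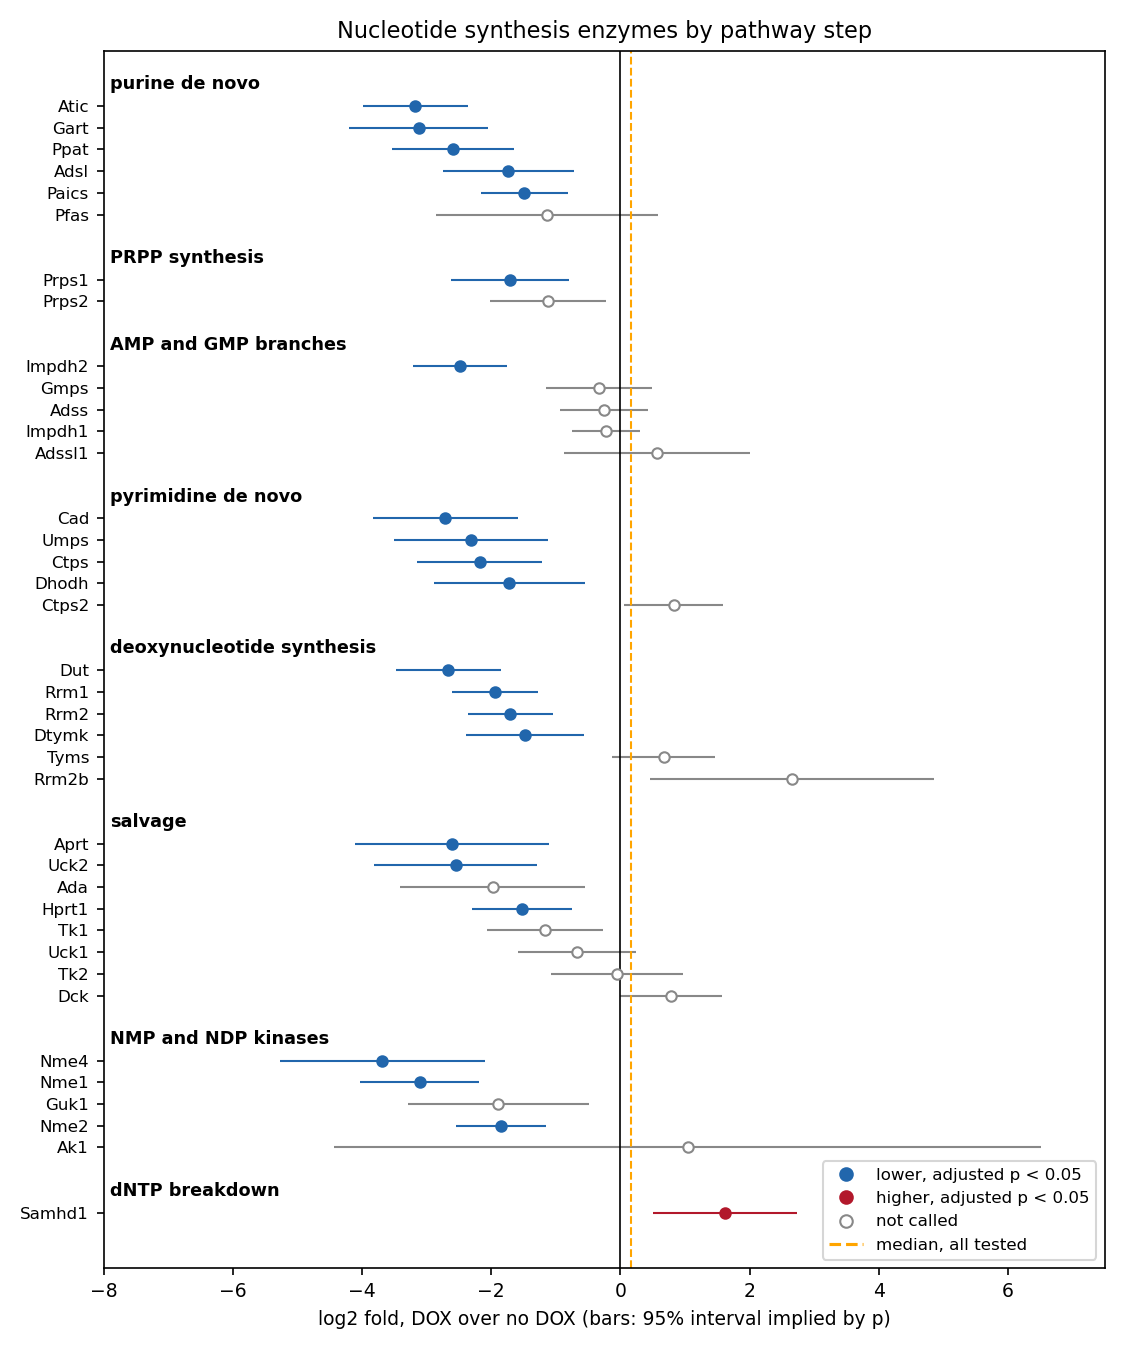
Log2 fold (DOX over no DOX) of each of the 38 members, grouped by pathway step, with the 95% interval implied by fold and p. Blue points fell and the red point rose at adjusted p under 0.05, open points were not called, and the dashed line is the median of all tested entries at 0.17. All purine de novo members but Pfas and all pyrimidine de novo members but Ctps2 are blue, and Samhd1 at the bottom is the red point.

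In purine synthesis, 5 of the 6 enzymes that lead from PRPP to inosine monophosphate fell, and all 6 had a ratio below 1 (median log2 fold -2.16). Atic, the bifunctional enzyme that closes the purine ring, had the smallest adjusted p of the whole set. Its ratio of 0.111 in the authors' deposited table is a 9.05-fold reduction (log2 fold -3.18, implied SE 0.42, adjusted p = 1.88e-11), which ranks 20 among all tested entries by p. Gart, a trifunctional enzyme that serves several of the middle steps, was 8.71-fold lower in the authors' deposited table (log2 fold -3.12, implied SE 0.55, adjusted p = 2.11e-06). Ppat, the amidotransferase that commits PRPP to purines, was 6.03-fold lower in the authors' deposited table (log2 fold -2.59, implied SE 0.48, adjusted p = 9.87e-06). The reductions of Adsl and Paics were smaller. Adsl, the lyase that acts both in this route and in the making of AMP, had a log2 fold of -1.74 (adjusted p = 0.0120), and Paics, which carboxylates and extends the growing ring, one of -1.49 (adjusted p = 0.000639) in the authors' deposited table. Pfas, the amidotransferase between the steps of Gart, missed the threshold in the authors' deposited table (log2 fold -1.14, implied SE 0.88, adjusted p = 0.521). Its implied 95% interval of -2.85 to 0.58 holds both the size of the Adsl change and no change.

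Ppat and Paics are neighbours on chromosome 5, read from opposite strands. In RefSeq's promoter table (GRCm38.p6) the start site of Paics lies at 76951302 on the plus strand and that of Ppat at 76951578 on the minus strand, 276 bases apart. Both fell, Ppat by the larger log2 fold (-2.59 against -1.49 in the authors' deposited table). Reads from the short stretch between both start sites can be told apart only where the counting used strand, and the sources used here do not give that setting.

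The supply of PRPP and the branches after inosine monophosphate showed fewer calls. Prps1, a PRPP synthetase, was 3.27-fold lower in the authors' deposited table (log2 fold -1.71, adjusted p = 0.00499). Its relative Prps2 had a log2 fold of -1.12 and missed the threshold in the authors' deposited table (adjusted p = 0.0986). Of the 5 branch enzymes only Impdh2 was called. Impdh2, the isoform of inosine monophosphate dehydrogenase that predominates in proliferating cells and opens the way to GMP, was 5.58-fold lower in the authors' deposited table (log2 fold -2.48, implied SE 0.37, adjusted p = 1.17e-08). The other 4 had adjusted p-values of at least 0.774, and of these Impdh1, Gmps and Adss lay nearest a ratio of 1. Impdh1, the second dehydrogenase, had a log2 fold of -0.23 and the smallest implied SE of the set, 0.27, so that its implied 95% interval of -0.75 to 0.30 does not reach the fold of Impdh2. Gmps, the GMP synthetase, had a log2 fold of -0.33, and Adss, which starts AMP synthesis, one of -0.25, both by the authors' deposited table. Adssl1, the muscle-type relative of Adss, stood at 0.57 with an implied SE of 0.74 in the authors' deposited table. The median log2 fold of the branch group was -0.25, against -2.16 for the steps before inosine monophosphate. That difference between groups of genes was not tested.

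Pyrimidine synthesis fell over its whole length except for the second CTP synthetase. Here 4 of 5 members were called lower (median log2 fold -2.18). Cad, which joins the opening reactions of the pathway in a single protein, was 6.56-fold lower in the authors' deposited table (log2 fold -2.71, implied SE 0.57, adjusted p = 0.000142). Dhodh, the mitochondrial dihydroorotate dehydrogenase, was 3.29-fold lower with an adjusted p close to the threshold by the authors' deposited table (log2 fold -1.72, implied SE 0.60, adjusted p = 0.0382). Umps, which completes UMP, was 4.96-fold lower in the authors' deposited table (log2 fold -2.31, adjusted p = 0.00336). Ctps, the CTP synthetase also known as Ctps1, was 4.53-fold lower in the authors' deposited table (log2 fold -2.18, adjusted p = 0.000403). Ctps2, which catalyses the same reaction, had a ratio of 1.77 and missed the threshold in the authors' deposited table (log2 fold 0.82, implied SE 0.39, adjusted p = 0.180).

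Among the 6 enzymes of deoxynucleotide synthesis 4 fell, and the other two had ratios above 1. Dut, the dUTPase that keeps uracil out of DNA and supplies dUMP, was 6.34-fold lower in the authors' deposited table (log2 fold -2.66, implied SE 0.42, adjusted p = 4.73e-08). The large reductase subunit Rrm1 (log2 fold -1.95, implied SE 0.34) and the S phase small subunit Rrm2 (-1.70, implied SE 0.33) had like folds in the authors' deposited table, with implied intervals of -2.61 to -1.28 and -2.35 to -1.05 that overlap. Dtymk, the thymidylate kinase, was 2.77-fold lower in the authors' deposited table (adjusted p = 0.0203). Tyms, the thymidylate synthase, had a ratio of 1.59 and missed the threshold in the authors' deposited table (log2 fold 0.67, implied SE 0.40, adjusted p = 0.346). Its implied 95% interval of -0.12 to 1.46 lies above the folds of the 4 enzymes that fell. The RefSeq identifier that the authors give for this Tyms entry is of the non-coding type. Whether the ratio is that of the coding transcript is therefore not known. Rrm2b, the p53-inducible small subunit that serves DNA repair and resting cells, had a ratio of 6.32, the highest of the set, and a log2 fold of 2.66 by the authors' deposited table. Its implied SE of 1.12 is wide, and it was not called by the authors' deposited table (adjusted p = 0.113).

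Salvage enzymes differed in whether they were called more than in direction. Of 8 members 7 had a ratio below 1 and 3 fell (median log2 fold -1.35). Aprt, which recovers adenine, was 6.10-fold lower in the authors' deposited table (log2 fold -2.61, implied SE 0.77, adjusted p = 0.0105). A separate entry spelled in lower case, aprt, has a ratio of 0 with a p of 1 in the authors' deposited table and was not counted as a member. Hprt1, which recovers hypoxanthine and guanine, was 2.88-fold lower in the authors' deposited table (log2 fold -1.52, adjusted p = 0.00302). Uck2, a uridine-cytidine kinase, was 5.85-fold lower in the authors' deposited table (log2 fold -2.55, adjusted p = 0.00216). Ada, the adenosine deaminase whose loss harms lymphocytes above other cells, stood just beyond the threshold at a 3.93-fold lower ratio in the authors' deposited table (log2 fold -1.97, implied SE 0.73, adjusted p = 0.0575). The cytosolic thymidine kinase Tk1, an S phase enzyme, stood at a log2 fold of -1.17 by the authors' deposited table (adjusted p = 0.0784, not called). Uck1 (-0.67) and the mitochondrial thymidine kinase Tk2 (-0.05) had adjusted p-values of 0.453 and 1 in the authors' deposited table. Dck, which phosphorylates deoxycytidine and other deoxynucleosides, was the salvage enzyme with a ratio above 1 in the authors' deposited table (log2 fold 0.79, implied SE 0.41, adjusted p = 0.230).

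The kinases that raise nucleotides to their di- and triphosphates held the lowest ratio of the set. Nme4, the mitochondrial nucleoside diphosphate kinase, was 12.9-fold lower in the authors' deposited table (log2 fold -3.68, implied SE 0.81, adjusted p = 0.000271). Nme1 was 8.61-fold lower (log2 fold -3.11, implied SE 0.47, adjusted p = 1.68e-08) and Nme2 3.60-fold lower (-1.85, implied SE 0.35, adjusted p = 1.70e-05) in the authors' deposited table. These neighbours on chromosome 11 encode closely similar cytosolic kinases, so the division of reads between them is uncertain. Without Nme2, 20 of 37 members were called lower. Guk1, the guanylate kinase, had a log2 fold of -1.89 and missed the threshold in the authors' deposited table (adjusted p = 0.0651). Ak1, the adenylate kinase typical of muscle and nerve, had a log2 fold of 1.04 with an implied SE of 2.80 in the authors' deposited table, so nothing can be read from its direction.

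**Figure D2:**
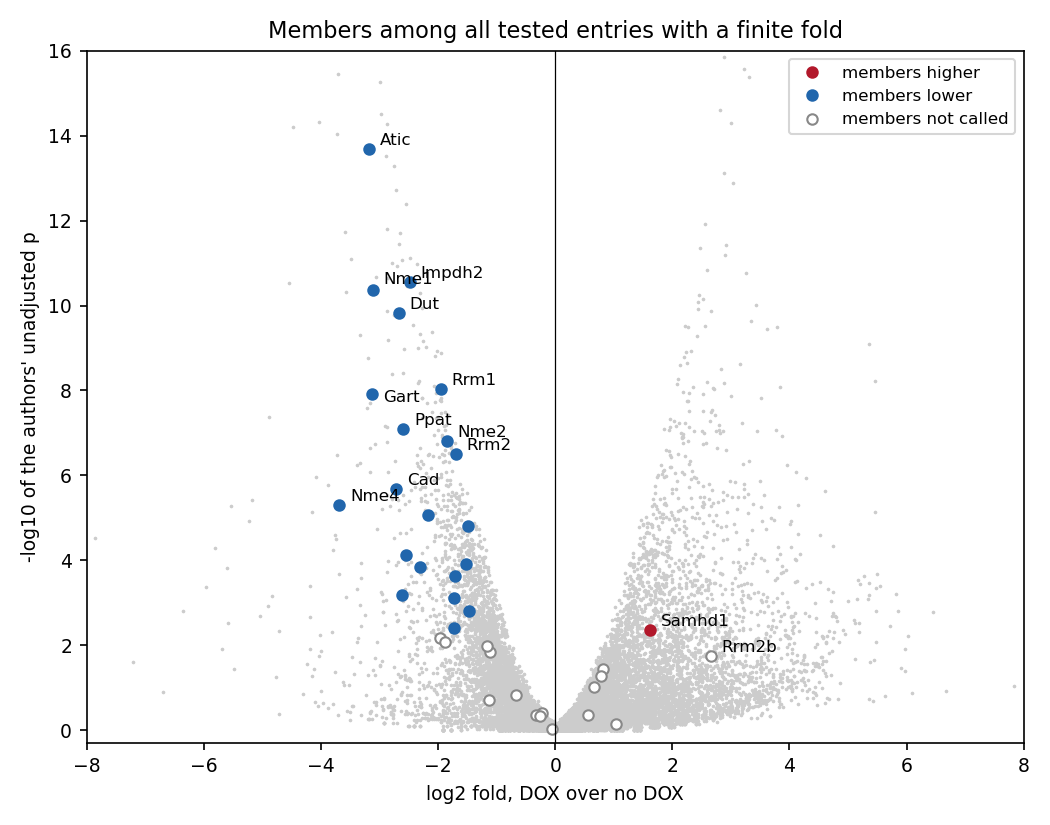
Log2 fold against -log10 of the authors' unadjusted p for all tested entries with a finite fold (grey; 7 entries above the axis are not drawn) and for the members (large points). Atic, Impdh2, Nme1 and Dut lie highest on the left, and Samhd1 and Rrm2b on the right.

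Samhd1 was the single member that rose. It encodes a hydrolase that breaks down deoxynucleoside triphosphates and so opposes ribonucleotide reductase, and it is abundant in myeloid cells. Its ratio was 3.08 in the authors' deposited table (log2 fold 1.62, implied SE 0.57, adjusted p = 0.0414). That call ended at an adjusted p under 0.01. All 17 macrophage and all 12 fibroblast markers also had ratios above 1, with 4 and 3 of them called higher. The part of either cell type in the rise of Samhd1 was not tested.

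Several steps are served by a pair of related enzymes, and the members of a pair often had different folds. In 5 of the 8 pairs examined 1 partner fell and the other was not called, in Nme1 and Nme2 both fell, and in 2 pairs neither was called. Rrm2 and Rrm2b lay 4.36 log2 units apart, Ctps and Ctps2 3.00, Impdh2 and Impdh1 2.25, and Uck2 and Uck1 1.88, from the ratios of the authors' deposited table. Prps1 and Prps2 differed by 0.59. The implied 95% intervals of both partners overlap for Prps1 and Prps2, Uck2 and Uck1, Nme1 and Nme2, Tk1 and Tk2, and Adss and Adssl1, and they do not for Rrm2 and Rrm2b, Ctps and Ctps2, and Impdh2 and Impdh1. No test of these differences could be run, since the table has no value per sample.

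**Figure D3:**
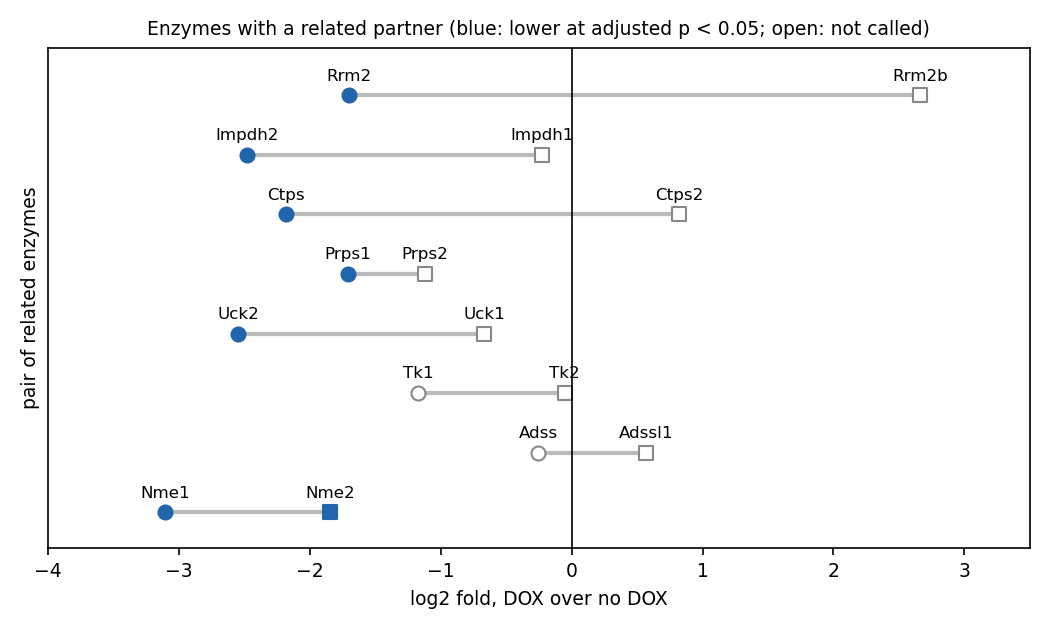
Log2 fold (DOX over no DOX) of both enzymes in each of 8 pairs, joined by a line. Circles mark the first and squares the second enzyme of a pair, and filled blue points fell at adjusted p under 0.05. The widest gap is between Rrm2 at -1.70 and Rrm2b at 2.66.

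Because miR-155 was withdrawn, the members' 3' UTRs were searched for matches to its seed, the bases of a microRNA that pair with its targets. Matches are shown for all members that hold one. The mature sequence from RefSeq's table (GRCm38.p6), with the seed, bases 2 to 8, in capitals, was:
miR-155-5p: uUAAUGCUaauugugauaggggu
The letters searched were AGCATTA (pairing with the whole seed) and GCATTAA (pairing with all but its last base, followed by A), in the sense strand of the longest annotated 3' UTR in GENCODE M21, where both overlap as AGCATTAA. Matches, in capitals, stood in 4 of 38 members (10.5%), against 13.5% of 14234 tested genes searched:
Samhd1, chr2:157098827-157098849 (GRCm38, minus strand): tgctgtaagaAGCATTAtctggt
Samhd1, chr2:157097545-157097567 (GRCm38, minus strand): ttacgagactGCATTAAaaatgg
Rrm2b, chr15:37926846-37926868 (GRCm38, minus strand): acttaagatgGCATTAAgagcat
Ctps2, chrX:163031679-163031702 (GRCm38, plus strand): aaacctaaggAGCATTAAaaacaa
Umps, chr16:33955348-33955370 (GRCm38, minus strand): aaggaaaaatGCATTAAgttcta
Of these 4 genes, Samhd1 rose, Rrm2b and Ctps2 had ratios above 1 that did not pass, and Umps fell. The 34 members without a match included 4 with a ratio above 1 and 20 that fell. Over the tested genes with a finite fold, 65.0% of those with a match and 49.3% of those without had a ratio above 1. Genes with a match have longer 3' UTRs (median 2553 bases against 992), and the 3' UTRs of the 4 members with one ran from 1437 to 3293 bases. Folds also tended to rise with transcript length, from a median log2 fold of -0.69 in the shortest decile to 0.70 in the longest. The part of length in these shares was not tested. A match is a run of letters and does not show that the site is used.

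Promoter sequence was examined because so many members were lower together. RefSeq's promoter table holds windows from 250 bases before to 50 after a start site for 35 of the 38 members. The E-box CACGTG, which reads alike on both strands and is the preferred site of MYC with its partner MAX among other factors, stood in a window of 6 of these 35 (17.1%), against 11.1% of 11244 tested genes with a window and 8.09% of all 27025 genes in that table. Over single windows the share was 7.15% of 32851. These members were Atic, Impdh2, Nme1, Paics and Dtymk, which fell, and Tyms, which was not called. The sites of the 5 that fell and of Tyms are shown with the E-box in capitals:
Atic, chr1:71557137-71557166 (GRCm38.p6, plus strand): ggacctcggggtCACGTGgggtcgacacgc
Impdh2, chr9:108560314-108560343 (GRCm38.p6, plus strand): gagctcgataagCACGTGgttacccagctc
Nme1, chr11:93968273-93968302 (GRCm38.p6, minus strand): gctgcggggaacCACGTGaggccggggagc
Nme1, chr11:93968037-93968066 (GRCm38.p6, minus strand): agcttgatacgcCACGTGggctcgcctttg
Paics, chr5:76951087-76951116 (GRCm38.p6, plus strand): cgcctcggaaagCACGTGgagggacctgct
Dtymk, chr1:93802065-93802094 (GRCm38.p6, minus strand): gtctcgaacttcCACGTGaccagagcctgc
Tyms, chr5:30073669-30073698 (GRCm38.p6, minus strand): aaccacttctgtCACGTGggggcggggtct
The E-box began 7 bases before the start site in Atic and 203 bases before it in Paics. Of 20 members that fell and have a window 5 held an E-box, and of 14 not called with a window 1 did. That 1 is Tyms, whose window was matched by symbol while its ratio comes from an entry with a non-coding identifier. Letters of the kind bound by E2F factors (TTCCCGC as well as TTGGCGC, besides TTCGCGC and also TTGCCGC, on both strands, which can overlap one another and do not contain the E-box) stood in 12 of 35 members (34.3%), against 18.1% of the tested genes with a window and 10.9% of all genes in the table. They were found in 9 of the 20 that fell, among them Rrm1, Rrm2, Cad, Ppat and Atic, and in 3 of the 14 not called. The window of Samhd1 held neither. These shares describe letters, and no test was made.

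Related genes of nucleotide metabolism outside the set were counted by lists. Of 11 tested genes of the folate pathway, which donates carbon to purines and thymidylate, 6 fell and 0 rose (median log2 fold -2.34). Shmt2, the mitochondrial serine hydroxymethyltransferase (-3.48, adjusted p = 4.15e-09), Mthfd1l (-2.34, adjusted p = 2.41e-07) and the cytosolic folate enzyme Mthfd1 (-3.88, adjusted p = 0.000120) led in the authors' deposited table. Of 12 other salvage, exchange and transport genes 4 fell and 0 rose (median -1.07), led by the purine nucleoside phosphorylase gene Pnp (-3.20, adjusted p = 3.77e-07), the dCTP pyrophosphatase gene Dctpp1, listed as 2410015N17Rik (-3.34, adjusted p = 4.40e-05), and the nucleoside transporter gene Slc29a1 (-2.06, adjusted p = 0.00241), all by the authors' deposited table. Of 10 other nucleotide kinases 1 fell, the adenosine kinase gene Adk (-1.79, adjusted p = 0.00609), in the authors' deposited table, and 0 rose. The median log2 fold of the 9 kinases with a finite fold was -0.35. Of 14 catabolic genes 2 fell and 0 rose, the AMP deaminase gene Ampd2 (-1.22, adjusted p = 0.0294) and the nucleotidase gene Nt5c3l (-1.80, adjusted p = 0.0318) in the authors' deposited table. The median of the catabolic genes was -0.41, and 6 of the 14 had a ratio above 1. The shares called lower were 10% of these kinases and 14.3% of the catabolic genes, beside 5.61% of all tested entries. As a reference for DNA copying itself, 15 of 25 replication genes outside the set fell and 0 rose (median -1.77), a share of 60.0% beside the members' 55.3%.

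**Figure D4:**
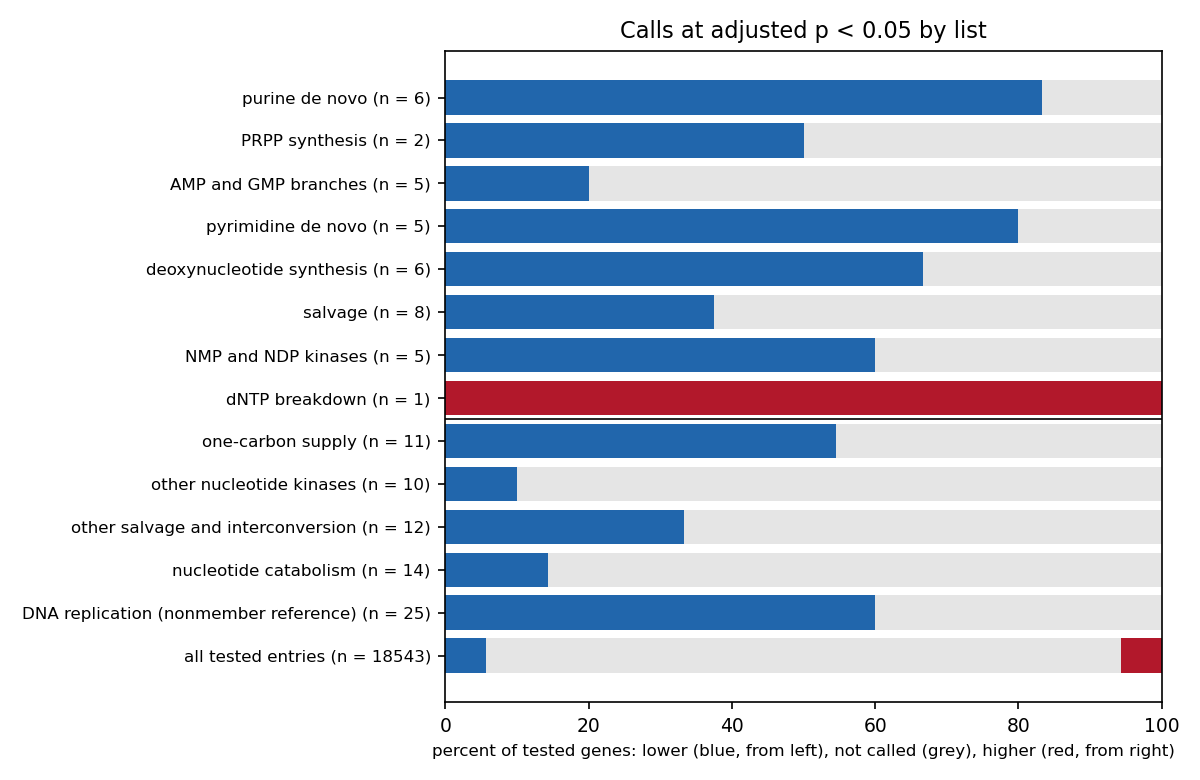
Percent of tested genes in each list called lower (blue, from the left) or higher (red, from the right) at adjusted p under 0.05, with the number tested. The 8 pathway steps of the set stand above the line, the related lists and all 18543 tested entries below it. Purine synthesis (83.3%) and pyrimidine synthesis (80.0%) have the longest blue bars, and the full red bar is the single gene Samhd1.

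In this table short transcripts tended to be lower, so the members were also placed by transcript length. Their longest protein-coding transcripts had a median of 2653 bases, against 3158 for all tested entries matched to one, and 23 of the 38 were shorter than that. In the decile of shortest transcripts 16.0% of entries were called lower, and in the longest 2.68%. Members fell in both short and long classes, with 5 of the 6 in the shortest decile (Nme4 and Aprt among them) and 1 of the 2 in the longest, Cad. With each fold centred on the median of its length decile, the members' median log2 fold was -1.48 in place of -1.71, and no member changed direction. Centring moved the nucleotide kinases from -1.89 to -1.20, salvage from -1.35 to -0.83 and deoxynucleotide synthesis from -1.59 to -1.13, while purine synthesis stood at -2.30 and pyrimidine synthesis at -2.14.

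**Figure D5:**
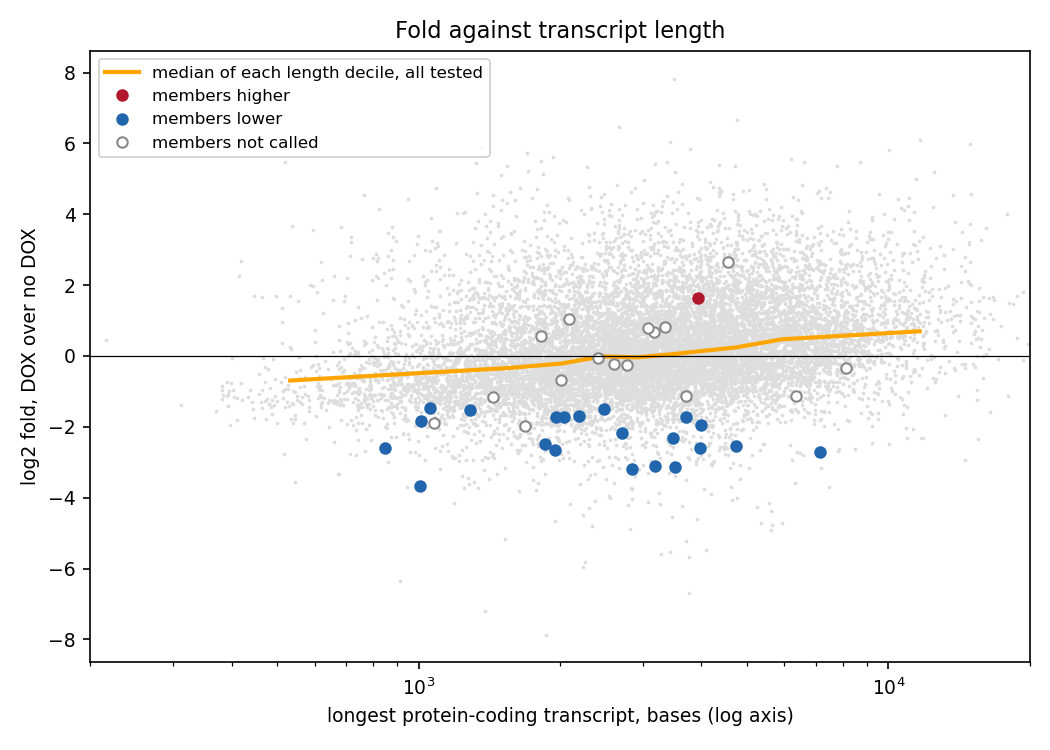
Log2 fold (DOX over no DOX) against the length of the longest protein-coding transcript (log axis, up to 20000 bases). Grey points are the tested entries with a finite fold that were matched to a protein-coding gene, and large points are the members. The orange line joins the medians of the length deciles, from -0.69 in the shortest to 0.70 in the longest, and every blue member lies below it.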

How the data were processed

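RNA from 6 tumour samples (3 DOX, 3 no DOX) was compared by the submitters. RSEM, DESeq and the mouse build mm9 are named, per the submitters' processing notes, and no version is given in the sources used here. The deposited table gives the authors' fold as a linear ratio with p-values before and after the authors' adjustment, per the file headers. Of 29209 entries 18543 have an adjusted p, and 15784 of these have a finite fold. The deposited p-values match a Benjamini-Hochberg adjustment over the 18543 to within 2.09e-06. Log2 folds were computed here from the ratio with Python 3.11.15, pandas 2.3.3 and scipy 1.17.1. The implied SE needs a normal quantile above 0.1 and, for a negative binomial test, is an approximation.

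Members and lists were chosen with earlier results of these data known. Accordingly no list was tested, and counts and medians stand beside those of all tested entries. All 38 members are described. From each related list up to 3 called genes per direction are named by adjusted p. For length and 3' UTRs, 14949 entries, and all 38 members, were matched to GENCODE M21 genes by symbol, RefSeq accession or unique synonym. That annotation is on GRCm38 and not mm9, and the coordinates printed are those of GRCm38. The code for counting and adjustment was run on simulated data with planted changes, which checks the code and not the authors' calls. Alternatives were other thresholds, centring and adjustment sets.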

Additional observations from a re-analysis of the deposited data

How the results depend on the processing

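No paired analysis was possible because the deposited table has no values per sample, and for the same reason leaving out replicates was not run. Precision per sample and depth could not be examined. The 21 members called lower became 17 at an adjusted p under 0.01, 25 under 0.1 and 10 under Bonferroni. The 1 member called higher, Samhd1, became 0 both at an adjusted p under 0.01 and under Bonferroni. Stricter thresholds lower such counts by construction. A change of at least 2-fold left 21 and 1. That filter could remove none, since the smallest reduction called was 2.77-fold and the ratio of Samhd1 was 3.08. The median of all tested entries lies at 0.17, and centring on it, or by length decile, reversed no member. By length decile the medians moved to -1.20 for the nucleotide kinases, -1.13 for deoxynucleotide synthesis and -0.83 for salvage. The mean of log2 folds for deoxynucleotide synthesis, which includes Rrm2b, was -0.74 in place of a median of -1.59. Chosen after seeing the data, adjustment over protein-coding matches gave 21 and 1, adjustment over finite folds 22 and 1, and leaving out Nme2 20 and 1.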
